A study of Mus musculus with 23 samples.

Results

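Saa3, Ptx3, Lcn2 and Hp encode 4 secreted proteins of the acute-phase response, and their transcripts were followed in mouse bone marrow-derived macrophages exposed to lipopolysaccharide (LPS, a bacterial outer-membrane component). The genes were taken by symbol, and all 4 were found among the 55401 genes of the deposited count table. The RNA-seq libraries came from wild-type and labelled Selenow knock-out macrophages, either untreated (0 h) or given LPS at 100 ng/ml for 4, 8 or 24 h. There were 3 libraries in a group, or 2 for labelled knock-out cells at 24 h, which makes 23 over 8 groups (numbers 1 to 12 are wild-type and 13 to 23 labelled knock-out). Strain, sex and age of the mice, and whether libraries of a group came from separate animals or cultures, are not given in the sources used here, so p-values measure the spread between these libraries, which may be technical. Untreated cells were collected at 0 h only, so LPS and time in culture cannot be told apart.

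The acute-phase response is the shift in secreted proteins that follows infection or injury. The liver is its best known site, driven by interleukin-6, interleukin-1 and the transcription factors STAT3, C/EBP and NF-kappaB, and macrophages make some of the same proteins locally. Saa3 is a serum amyloid A protein made mainly outside the liver. Ptx3 is the long pentraxin, a soluble pattern recognition molecule. Lcn2 (lipocalin 2) binds bacterial siderophores and so withholds iron, and Hp (haptoglobin) binds free haemoglobin. Lcn2 and Hp are also known as neutrophil granule proteins.

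Library totals ran from 39001456 to 41819953 counted read pairs. The targeted gene did not follow the label in every library. At 0, 4, 8 and 24 h Selenow was 103 to 133, 181 to 203, 303 to 327 and 161 to 201 CPM (counts scaled to a common library total by the TMM method) in wild-type. It was 106, 191, 260 and 181 CPM in labelled knock-out libraries 13, 16, 19 and 22 of these times, of which only library 19 lay below wild-type. The other 7, at 39.4 and 40.8, 82.6 and 81.1, 135 and 125, and 113 CPM, all lay below wild-type of their time. The genotype is therefore called labelled knock-out throughout. Libraries 3, 6, 9 and 12 among wild-type and 14, 17, 20 and 23 among labelled knock-out deviated alike from their groups. Across 10415 genes, their deviations from the group mean correlated between the genotypes at the same time (r = 0.765, 0.767, 0.774 and 0.707 at 0, 4, 8 and 24 h), and they are called the second library set. In the group of 2 at 24 h the deviations mirror each other, so library 23 was placed only by its match to library 12. The labels do not say what the sets are. Macrophage markers were high in every library, with Lyz2 between 5506 and 18382 CPM and Csf1r between 1445 and 3248 CPM.

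Promoter windows are shown for the genes that reached the highest level (Saa3) and that rose and fell within the series (Ptx3). Windows were matched by symbol for 3 of the 4 genes in the RefSeq table (GRCm38.p6). The Lcn2 window overlaps annotated exons of a longer Lcn2 transcript and is not shown. Each run is on the gene's own strand, 5′ to 3′, and capitals mark the only match to a C/EBP motif.
Saa3, chr7:46715701-46715926, minus strand: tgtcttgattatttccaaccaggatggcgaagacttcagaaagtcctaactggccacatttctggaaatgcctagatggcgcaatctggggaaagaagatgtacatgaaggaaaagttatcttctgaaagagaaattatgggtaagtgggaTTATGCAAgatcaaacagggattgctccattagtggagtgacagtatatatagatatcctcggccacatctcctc
Ptx3, chr3:66219637-66219886, plus strand: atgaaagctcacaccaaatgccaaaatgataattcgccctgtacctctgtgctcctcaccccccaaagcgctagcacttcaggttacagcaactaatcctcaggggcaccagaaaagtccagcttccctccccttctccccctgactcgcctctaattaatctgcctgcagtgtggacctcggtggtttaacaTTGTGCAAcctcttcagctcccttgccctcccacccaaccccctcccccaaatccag
The Saa3 window has 226 bases and ends 24 bases before the RefSeq start, because an annotated coding transcript begins in between. The Ptx3 window has the 250 bases before the RefSeq start. Both strands were searched for C/EBP (TTGCNNAA), STAT (TTCNNNGAA), AP-1 (TGAGTCA or TGACTCA) and the consensus kappaB motif. The C/EBP match starts 99 bases upstream of the RefSeq start in Saa3 and 57 bases upstream in Ptx3, and the letters of the other motifs are not in either window. Of 32851 promoters in the table, 8.9% hold a C/EBP match in a window of 226 bases and 9.6% in one of 250 bases. The kappaB motif occurs in 6.5% and 7.3%, STAT in 6.4% and 7.0%, and AP-1 in 4.1% and 4.5% of them. A match describes the letters only.

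The 4 genes lie on different chromosomes (GRCm38). Saa3 (ENSMUSG00000040026) spans chr7:46711998-46715700 on the minus strand, Lcn2 (ENSMUSG00000026822) chr2:32384633-32388252 on the minus strand, Hp (ENSMUSG00000031722) chr8:109575128-109579172 on the minus strand and Ptx3 (ENSMUSG00000027832) chr3:66219910-66225805 on the plus strand. Counting ignored strand, so antisense reads would be included. Ptx3 lies within the span of Veph1 on the other strand, without overlap of exons, and the other 3 overlap no annotated gene. None of the 100-base windows of the 4 genes' annotated transcripts (0 of 2593 for Saa3, 2581 for Ptx3, 2803 for Lcn2 and 1504 for Hp) occurs in transcripts of another gene, whereas 9.0% of the Saa1 windows are shared with Saa2.

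Saa3 rose by more than 3 orders of magnitude and stayed high to 24 h. In wild-type cells it was at 1.18, 1.27 and 8.21 CPM untreated, 2430, 2225 and 952 CPM at 4 h, 6717, 7524 and 4642 CPM at 8 h, and 3217, 3640 and 5656 CPM at 24 h. In the labelled knock-out it was at 1.66, 1.79 and 5.93 CPM untreated, 2061, 1502 and 1657 CPM at 4 h, 8373, 6755 and 8873 CPM at 8 h, and 4691 and 5866 CPM at 24 h. No treated library was below 952 CPM and no untreated one above 8.21 CPM. The 8 h libraries lay above the 4 h ones in both genotypes, and they overlapped with the 24 h libraries in wild-type but not in the labelled knock-out. The log2 fold change in wild-type, with its standard error (SE), was 9.04 ± 0.80 at 4 h, 10.79 ± 0.85 at 8 h and 10.20 ± 0.83 at 24 h against untreated (edgeR's quasi-likelihood test, Benjamini-Hochberg adjusted p = 1.29e-08, 4.55e-09 and 1.50e-08). The labelled knock-out gave 9.12 ± 0.80, 11.32 ± 0.87 and 10.72 ± 0.86. At 8 h Saa3 took 0.544% of all counted pairs in wild-type and 0.716% in the labelled knock-out. Per kilobase of exonic length it ranked 17 and 13 among 18083 genes tested, having ranked 11348 and 11599 in untreated cells.

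Lcn2 followed a like course from a higher starting level. In wild-type cells it was at 13.6, 16.5 and 14.9 CPM untreated, 221, 220 and 102 CPM at 4 h, 753, 815 and 626 CPM at 8 h, and 340, 374 and 983 CPM at 24 h. The labelled knock-out held 22.5, 18.7 and 21.1 CPM untreated, 231, 155 and 193 CPM at 4 h, 863, 705 and 896 CPM at 8 h, and 413 and 863 CPM at 24 h. Treated and untreated libraries did not overlap at any time, and at 24 h the second-set library of each genotype was the highest. The log2 fold change was 3.60 ± 0.38, 5.61 ± 0.42 and 5.24 ± 0.42 at 4, 8 and 24 h in wild-type (adjusted p = 1.61e-07, 2.73e-09 and 1.08e-08). Labelled knock-out cells gave 3.22 ± 0.38, 5.30 ± 0.42 and 4.94 ± 0.42.

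Hp rose to a peak at 8 h and had lost most of it by 24 h. In wild-type cells it was at 1.44, 1.70 and 2.14 CPM untreated, 63.6, 46.5 and 9.0 CPM at 4 h, 156, 178 and 49.6 CPM at 8 h, and 9.03, 10.3 and 18.2 CPM at 24 h. The labelled knock-out held 2.47, 2.54 and 3.15 CPM untreated, 43.0, 19.6 and 38.5 CPM at 4 h, 240, 113 and 255 CPM at 8 h, and 19.3 and 27.7 CPM at 24 h. The lowest library at 4 and 8 h was that of the second set in both genotypes. Hp was still above every untreated library at 24 h, although its mean had dropped to 9.80% of the 8 h mean in wild-type and 11.6% in the labelled knock-out. The log2 fold change against untreated was 4.49 ± 0.63, 6.18 ± 0.67 and 2.83 ± 0.60 in wild-type (adjusted p = 4.51e-06, 2.32e-07 and 0.000552). The values in labelled knock-out cells were 3.63 ± 0.60, 6.22 ± 0.66 and 3.11 ± 0.62.

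Ptx3 was highest at 4 h and back among the few-read genes at 24 h. Its raw counts in wild-type were 0, 2 and 2 untreated, 2243, 2454 and 2492 at 4 h, 458, 256 and 844 at 8 h, and 4, 3 and 4 at 24 h. Labelled knock-out counts were 4, 19 and 9 untreated, 3393, 1773 and 1923 at 4 h, 247, 520 and 218 at 8 h, and 0 and 6 at 24 h. A count of 0 allows up to 3 counts, or 0.0562 CPM in wild-type library 1 and 0.0661 CPM in labelled knock-out library 22, and such limits cover counting error only. On the CPM scale the means were 68.5 ± 3.53 (SD, n = 3) in wild-type and 70.7 ± 30.1 (SD, n = 3) in the labelled knock-out at 4 h, and the 4 h, 8 h and 24 h libraries did not overlap in either genotype. The log2 fold change against untreated was 11.42 ± 0.77 at 4 h and 9.26 ± 0.77 at 8 h in wild-type (adjusted p = 4.23e-10 and 8.37e-09), and 8.46 ± 0.61 and 5.46 ± 0.58 in the labelled knock-out. The size of the wild-type rise rests on the 0 to 2 untreated reads of each library. At 24 h no difference from untreated was detectable at this depth, with log2 fold changes of 1.78 ± 1.49 (adjusted p = 0.324) and -1.55 ± 1.15 (adjusted p = 0.293).

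**Figure D1:**
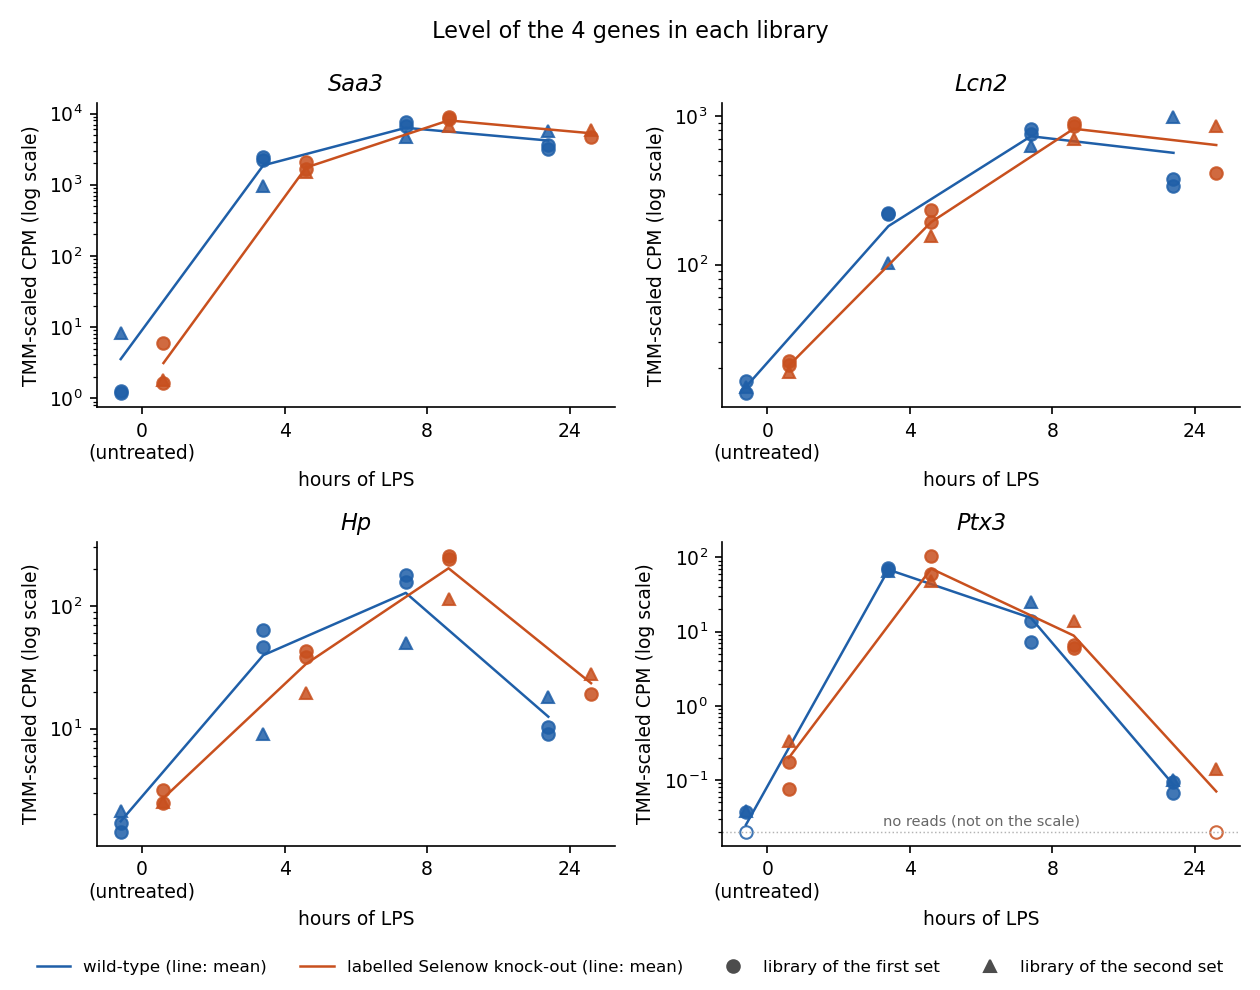
TMM-scaled CPM (log axis) of Saa3, Lcn2, Hp and Ptx3 in each of the 23 libraries against hours of LPS, with circles for the first and triangles for the second library set and lines through the group means. Saa3 and Lcn2 remain far above untreated at 24 h, lower than at 8 h in the first library set, Hp drops after 8 h, and Ptx3 peaks at 4 h, with open symbols on the dotted line for the libraries without reads.

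At 4 h and at 8 h all 4 genes were called higher in both genotypes, where 28.2% and 30.3% of the 18083 genes tested were called higher in wild-type and 28% and 28.3% in the labelled knock-out. At 24 h 3 of the 4 were called higher in both, with Ptx3 not called, against 27.8% and 22.6% of all genes. In wild-type 34.8%, 35.1% and 27.3% of all genes were called lower at 4, 8 and 24 h. The median log2 fold change of all genes tested was -0.12, -0.10 and -0.00 in wild-type at 4, 8 and 24 h. Among genes with a mean of at least 5 CPM in either of the groups compared, the wild-type rise of Ptx3 at 4 h ranked 14 of 11045, and those of Saa3, Hp and Lcn2 ranked 43, 302 and 463. At 8 h Saa3 ranked 8 of 11051, Ptx3 31, Hp 143 and Lcn2 178.

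The steps between times separated the genes. From 4 to 8 h Saa3, Lcn2 and Hp rose and Ptx3 fell in both genotypes, where 24% of genes rose and 22.8% fell in wild-type and 24.4% and 22.8% in the labelled knock-out. In wild-type the log2 changes were 1.75 ± 0.57 for Saa3 (adjusted p = 0.0176), 2.01 ± 0.36 for Lcn2 (adjusted p = 0.000163), 1.69 ± 0.54 for Hp (adjusted p = 0.0150) and -2.16 ± 0.42 for Ptx3 (adjusted p = 0.000400). The same steps in labelled knock-out cells were 2.20 ± 0.58, 2.09 ± 0.36, 2.59 ± 0.55 and -3.00 ± 0.44. The Saa3 step in wild-type lost its call without library 6 (1.43, adjusted p = 0.0808) or library 8 (1.60, adjusted p = 0.0516), and the Hp step without library 8 (1.37, adjusted p = 0.0680).

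From 8 to 24 h Hp and Ptx3 fell in both genotypes, where 21.9% of genes fell in wild-type and 16.8% in the labelled knock-out. Hp changed by -3.35 ± 0.58 in wild-type (adjusted p = 0.000141) and -3.11 ± 0.67 in the labelled knock-out (adjusted p = 0.00164), where the call was lost without libraries 13, 16, 19 and 22 (-2.73, adjusted p = 0.0890). Ptx3 changed by -7.48 ± 0.67 and -7.02 ± 0.83, and in wild-type no other of 10506 genes with a group mean of at least 5 CPM had a larger fall. Saa3 changed by -0.59 ± 0.56 (adjusted p = 0.411) and -0.60 ± 0.63 (adjusted p = 0.495), and Lcn2 by -0.37 ± 0.35 (adjusted p = 0.405) and -0.36 ± 0.39 (adjusted p = 0.500), none of them called. Within the first library set both were lower at 24 h than at 8 h: Lcn2 changed by -1.15 and -1.11 and Saa3 by -1.07 and -0.90 in wild-type and labelled knock-out (adjusted p = 9.66e-08, 3.76e-06, 0.00181 and 0.0306, edgeR on first-set libraries alone), in fits that called 55% and 43.8% of all genes. That fit has 1 labelled knock-out library at 24 h, assumed to vary like the other groups. Without wild-type library 12 alone, the Lcn2 change was -1.04 (adjusted p = 0.00898).

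Levels between genes were compared per kilobase. On the deposited exonic length, the wild-type 8 h means were 2415 CPM per kb for Saa3, 279 for Lcn2, 79.5 for Hp and 5.70 for Ptx3, with no overlap between libraries of these genes. At 4 h Ptx3 (25.5 CPM per kb) and Hp (24.7) had close means, and the Hp libraries, from 5.61 to 39.6, enclosed those of Ptx3, from 24.6 to 27. The deposited lengths of 2606 bases for Saa3 and 2623 for Lcn2 join all annotated transcripts, among them a second coding model of 2200 bases for Saa3 and retained-intron models for Lcn2. On the 555 and 915 bases of the Saa3-201 and Lcn2-201 transcripts the 8 h means were 11341 and 799 CPM per kb, so the order of the 4 genes at 8 h was the same on either length.

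Within each gene, the 8 groups were ordered by mean level. For Saa3 and Lcn2 the order was 8 h, 24 h, 4 h and 0 h, each with its 2 genotypes next to each other. Among their 8 h and 24 h groups each overlapped in libraries with the next in order, and the 4 h groups lay below all of these. The genotypes overlapped at 0 h for Saa3 and not for Lcn2 or Hp. For Hp the order was 8 h, 4 h, 24 h and 0 h, and the 4 h range in wild-type (9.0 to 63.6 CPM) covered that of both 24 h groups. For Ptx3 it was 4 h, 8 h and then untreated and 24 h groups, each of which overlapped with the next in order. Untreated wild-type (0 to 0.0379 CPM) lay below untreated labelled knock-out (from 0.0765 CPM) and below wild-type at 24 h (from 0.0670 CPM).

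Across the 23 libraries, log2 CPM of Saa3 and Lcn2 correlated most closely (Pearson r = 0.962), followed by Lcn2 and Hp (0.873) and Saa3 and Hp (0.862). Ptx3 correlated with Hp at 0.657, with Saa3 at 0.515 and with Lcn2 at 0.392. These values describe a pattern over shared treatment groups. Genes were compared among 10134 with a symbol and a group mean of at least 5 CPM, leaving out provisional names such as Gm numbers and Rik. Those most like Saa3 were Cfb (r = 0.996, complement factor B), Irf7 (0.992, an interferon regulatory factor), Zmynd15, Cxcl16 and Il18bp. Lcn2 was most like Prdx5 (0.988, a peroxiredoxin), Saa1 (0.988), Ms4a6d, P4ha1 and Fcgr1. Hp was most like Gsdmd (0.975, gasdermin D), F10 (0.969, coagulation factor X), Rnpep, Pgap2 and March1. The genes most like Ptx3 were Fst (0.986, follistatin), Ppp2r5a, Olr1 (0.984, an oxidised LDL receptor), Malt1 and Loxl4, and Fst and Loxl4 reached group means of only 6.35 and 5.98 CPM.

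**Figure D2:**
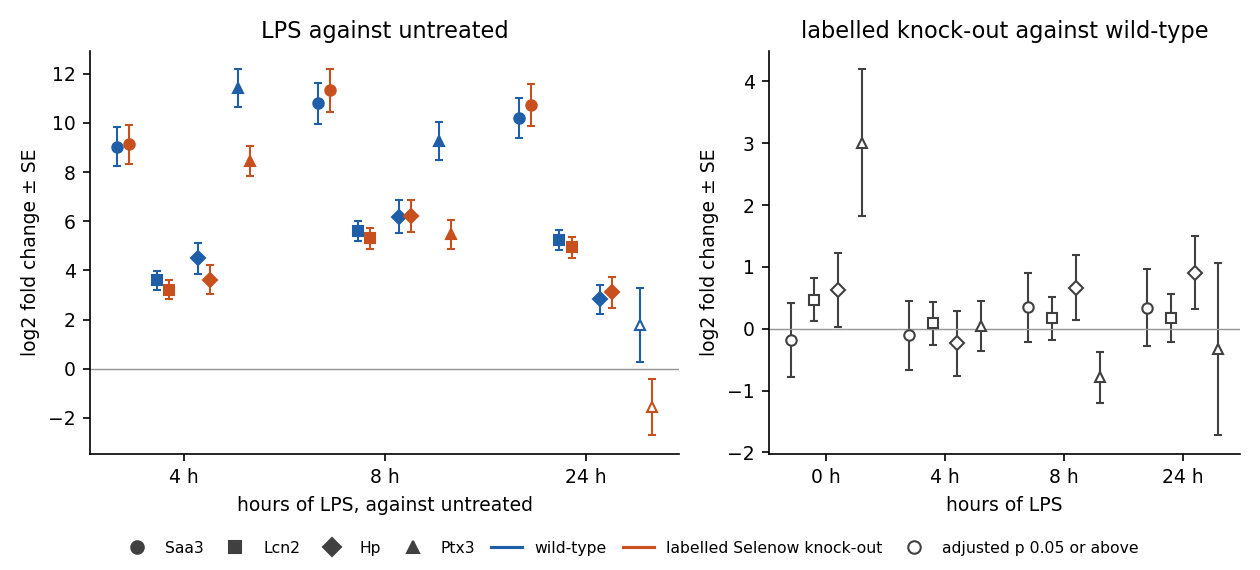
Left, log2 fold change ± SE of each gene after 4, 8 and 24 h of LPS against untreated in wild-type and labelled knock-out; right, labelled knock-out against wild-type at each time. Filled symbols mark an adjusted p under 0.05: all LPS comparisons except Ptx3 at 24 h are filled, and no genotype comparison is.

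Between the genotypes, none of the 16 genotype comparisons, 4 genes at 4 times, was called by edgeR's quasi-likelihood test, where 1.52%, 1.24%, 2.2% and 1.19% of all genes were called at 0, 4, 8 and 24 h. By unadjusted p under 0.05, 1 of the 16 passed, DESeq2 called 1 (Ptx3 at 0 h in both cases) and limma-voom called 0. In the average over times 6.27% of genes were called and the lowest p among the 4 was that of Hp (0.49 ± 0.28, unadjusted 0.0954 and adjusted 0.373 by edgeR), with none called by DESeq2 or limma-voom either. The Saa3 difference was -0.19 ± 0.60, -0.10 ± 0.56, 0.35 ± 0.56 and 0.34 ± 0.62 on the log2 scale at 0, 4, 8 and 24 h. For Lcn2 it was 0.47 ± 0.35, 0.09 ± 0.35, 0.17 ± 0.35 and 0.17 ± 0.38. Each SE of Saa3 was larger than its difference, so at this spread neither a direction nor its absence could be read for Saa3.

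Hp was 0.63 ± 0.59 higher on the log2 scale in the labelled knock-out at 0 h (adjusted p = 0.769), -0.24 ± 0.53 at 4 h, 0.67 ± 0.52 at 8 h (adjusted p = 0.639) and 0.91 ± 0.59 at 24 h (adjusted p = 0.568). Its labelled knock-out libraries lay above all wild-type libraries at 0 h and at 24 h. At 8 h the libraries of the groups overlapped, but within each set the labelled knock-out was higher: 240 and 255 against 156 and 178 CPM in the first set, and 113 against 49.6 CPM in the second. At 4 h the sets went opposite ways, with 43.0 and 38.5 against 63.6 and 46.5 CPM in the first set and 19.6 against 9.0 CPM in the second. A fit with the library set at each time as a term, added after the sets were seen, called Hp higher at 8 h (0.77, adjusted p = 0.0189), at 24 h (0.82, adjusted p = 0.0285) and in the average (0.56, adjusted p = 0.00340). That fit called 16.2%, 19.5% and 23.9% of all genes in the same comparisons, and since the sets were found in these data its p-values may be too small. Without libraries 13, 16, 19 and 22, in which Selenow was closest to wild-type, the Hp difference was 0.53 at 8 h and 1.15 at 24 h, not called. At 24 h that fit has 1 labelled knock-out library, number 23 of the second set, which was the higher of its group (27.7 against 19.3 CPM).

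At 0 h the libraries of the genotypes did not overlap for Lcn2, Hp and Ptx3, all higher in the labelled knock-out, where 10.6% of genes had such a pattern. At 24 h this held for Hp alone, against 16% of genes, and at 4 and 8 h for none of the 4, against 6.98% and 11.3%. With the library set as a term, Lcn2 was called higher at 0 h (0.47, adjusted p = 0.0192), where 13.6% of genes were called, and in the average (0.21, adjusted p = 0.0192). Neutrophil markers were also compared between the genotypes. The list of 11 was meant to leave out genes that macrophages induce with LPS, but Mmp8 (neutrophil collagenase) reached 120 to 325 CPM in wild-type and 151 to 178 CPM in labelled knock-out at 24 h, so it is given apart, a choice made after its values were seen. The other 10 markers summed to 70 to 84.7 CPM in untreated wild-type and 116 to 119 CPM in untreated labelled knock-out, all with reads in both. At 24 h they summed to 1.74 to 2.65 and 4.59 to 5.93 CPM, with Prtn3 at 0 in the labelled knock-out, and the genotypes did not overlap at 4 or 8 h either. The sums were thus higher also at 4 h, where Hp and Lcn2 differed by -0.24 and 0.09. Ngp and Ltf made up most of the untreated sums, while Mpo and Prtn3 overlapped between the untreated genotypes. Of the 11, 10 were tested. At 0, 4, 8 and 24 h 1, 3, 3 and 2 were called higher and 0 lower, against 1.52%, 1.24%, 2.2% and 1.19% of all genes in either direction. Ltf (lactoferrin, a granule protein) was at 21.3 to 24.9 CPM in untreated wild-type and 38.8 to 41.7 CPM in untreated labelled knock-out. It was called higher in the labelled knock-out at each time, by 0.77, 0.99, 1.14 and 2.39 on the log2 scale (adjusted p = 0.0151, 0.00163, 0.000475 and 2.06e-06). Their part in the genotype values of Lcn2 and Hp was not tested. After 8 h of LPS the 10 markers summed to 11 to 16.2 CPM in wild-type, below every untreated library, while Lcn2 and Hp rose. In bulk libraries fewer cells of a type and less RNA per cell cannot be told apart.

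Ptx3 gave the largest genotype value among the 4 genes, 3.01 ± 1.19 on the log2 scale in untreated cells (adjusted p = 0.292, edgeR), from 0, 2 and 2 reads in wild-type against 4, 19 and 9. DESeq2 called it (3.0, adjusted p = 0.0344), in a fit that called 3.03% of genes. The summed level of the 14 stromal markers was 2.31 to 3.03 CPM in untreated wild-type, with Lum and Fbln1 at 0. It was 3.4, 30.1 and 6.68 CPM in labelled knock-out libraries 13, 14 and 15, which held 4, 19 and 9 Ptx3 reads, and its part in this value was not tested. At 4 h of LPS library 17, with 114 CPM of stromal markers, had the lowest Ptx3 level of its group (48.0 CPM). Pdgfrb made up 71.6 CPM of that sum, and it also rose in wild-type, to 27.1 to 39.1 CPM at 4 h. At 8 h library 20, with 113 CPM of stromal markers, had the highest Ptx3 level of its group (520 reads against 247 and 218). At 24 h library 23, with 45.4 CPM against 7.75 CPM in library 22, had 6 Ptx3 reads against 0. Libraries 14, 17, 20 and 23 are the second library set of the labelled knock-out. High stromal sums and library set thus go together there, and their separate parts in the Ptx3 levels were not tested. Ptx3 differed between the genotypes by 0.04 ± 0.40 at 4 h, and at 8 h by -0.79 ± 0.42 (adjusted p = 0.426), called with the library set as a term (-0.77, adjusted p = 0.0310).

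Whether the LPS response itself differed between the genotypes was tested by an interaction term. None of the 12 interactions (4 genes at 3 times) was called by edgeR, where 0.0442%, 0.0442% and 0% of genes were called at 4, 8 and 24 h. By unadjusted p under 0.05, 2 passed, both of Ptx3, DESeq2 called 1 and limma-voom called 0. The Ptx3 rise at 8 h was smaller in the labelled knock-out by -3.79 ± 1.24 on the log2 scale (adjusted p = 0.255, edgeR). It was called by DESeq2 (-3.80, adjusted p = 0.0236, where 1.08% of genes were called) and with the library set as a term (-3.75, adjusted p = 0.0373, in a fit that called 12.7% of genes). That value rests mostly on the few untreated reads: the genotypes differed by -0.79 at 8 h and 3.01 at 0 h. In the first library set alone, the Hp rise at 4 h was smaller in the labelled knock-out (-1.27, adjusted p = 0.0304, edgeR), where 0.372% of genes were called. That set includes labelled knock-out libraries 13 and 16, in which Selenow lay within wild-type.

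**Figure D3:**
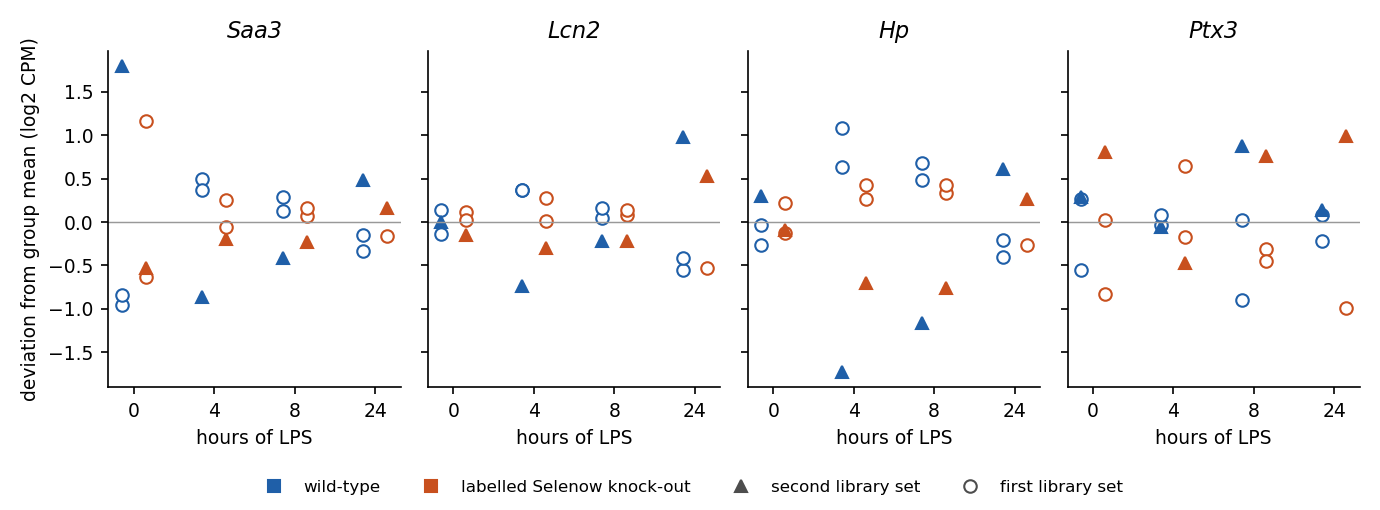
Deviation of each library from its group mean (log2 CPM, prior count of 2) for the 4 genes, by hours of LPS, with filled triangles for the second and open circles for the first library set. At 4 and 8 h the second-set libraries of both genotypes lie lowest for Saa3, Lcn2 and Hp and at 24 h they lie highest.

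Spread within groups is given by library set. Saa3, Lcn2 and Hp were lowest in the second-set library at 4 and 8 h and highest in it at 24 h, in both genotypes. The sets were found from deviations of 10415 genes that include these, so such a pattern is partly built in. In the group of 2 either library is always the lowest or the highest. The share of all genes with this pattern was not counted. Hp had a first-set mean 6.11 times the second-set library at 4 h and 3.37 times at 8 h in wild-type, and 2.08 and 2.19 times in the labelled knock-out. For Lcn2 at 24 h the second-set library was 2.75 times the first-set mean in wild-type and 2.09 times in the labelled knock-out. Ptx3 differed from the other 3 at 8 h, where the second-set library was the highest, at 2.36 and 2.22 times the first-set mean. In untreated cells Saa3 was 6.69 times higher in wild-type library 3 than in libraries 1 and 2, but in the labelled knock-out the highest was library 15 of the first set.

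The other SAA genes of the family, Saa1, Saa2 and Saa4, were called higher at 4 and 8 h in wild-type, as were 28.2% and 30.3% of all genes. They stayed far below Saa3, at 3.55, 0.498 and 0.139 CPM per kb at 8 h. Saa1, an inducible liver acute-phase protein, was at 0.00624, 1.84, 8.79 and 17 CPM in wild-type at 0, 4, 8 and 24 h, with a log2 fold change of 10.46 ± 1.56 at 8 h (adjusted p = 1.81e-05). Its 24 h libraries were at 4.53, 3.55 and 43 CPM, so that mean rests on library 12. Reads that map to both Saa1 and Saa2 were not counted, and both levels are uncertain to that extent. Saa2 was at 0.15, 3.26 and 0.353 CPM in wild-type at 8 h, so its mean rests on library 8, and Saa4 at a mean of 0.291 CPM. Neither had reads in untreated cells. The short pentraxins were nearly silent: Crp (C-reactive protein) had no reads in any wild-type group and Apcs (serum amyloid P) none in any library. Of 7 pentraxin genes 3 passed the filter on low counts. The other 2 of these, Nptxr and Nptx1, were both called lower at 8 and 24 h in wild-type, opposite to Ptx3 at 8 h. Of all genes 35.1% and 27.3% were called lower at these times.

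Other acute-phase genes were taken from a list of 36 that also holds Saa1, Saa2 and Saa4, of which 23 passed the filter. In wild-type 21, 18 and 13 of the 23 were called higher and 1, 1 and 3 lower at 4, 8 and 24 h, with median log2 fold changes of 4.35, 4.29 and 2.03. Of all genes 28.2%, 30.3% and 27.8% were called higher and 34.8%, 35.1% and 27.3% lower, with medians of -0.12, -0.10 and -0.00. In the labelled knock-out 19, 18 and 11 of the list were called higher, against 28%, 28.3% and 22.6% of all genes. Cfb, which activates the alternative complement pathway, rose from 3.07 to 517, 1649 and 1209 CPM in wild-type, and C3, the central complement component, from 42.1 to 365 and 702 CPM at 4 and 8 h. At 24 h C3 was at 368, 347 and 1489 CPM, so its mean of 735 CPM rests on library 12. Il1rn, the interleukin-1 receptor antagonist, peaked at 8 h (9856 CPM) and was at 1990 CPM at 24 h, and Fgl2, fibrinogen-like protein 2, was at 419 CPM at 8 h and at 35.8, 45.5 and 187 CPM in the 24 h libraries. Mt2, a metallothionein, was at 491, 77.0 and 16.8 CPM at 4, 8 and 24 h, and fell from 4 to 8 h as Ptx3 did (log2 change of -2.67, adjusted p = 0.000209).

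**Figure D4:**
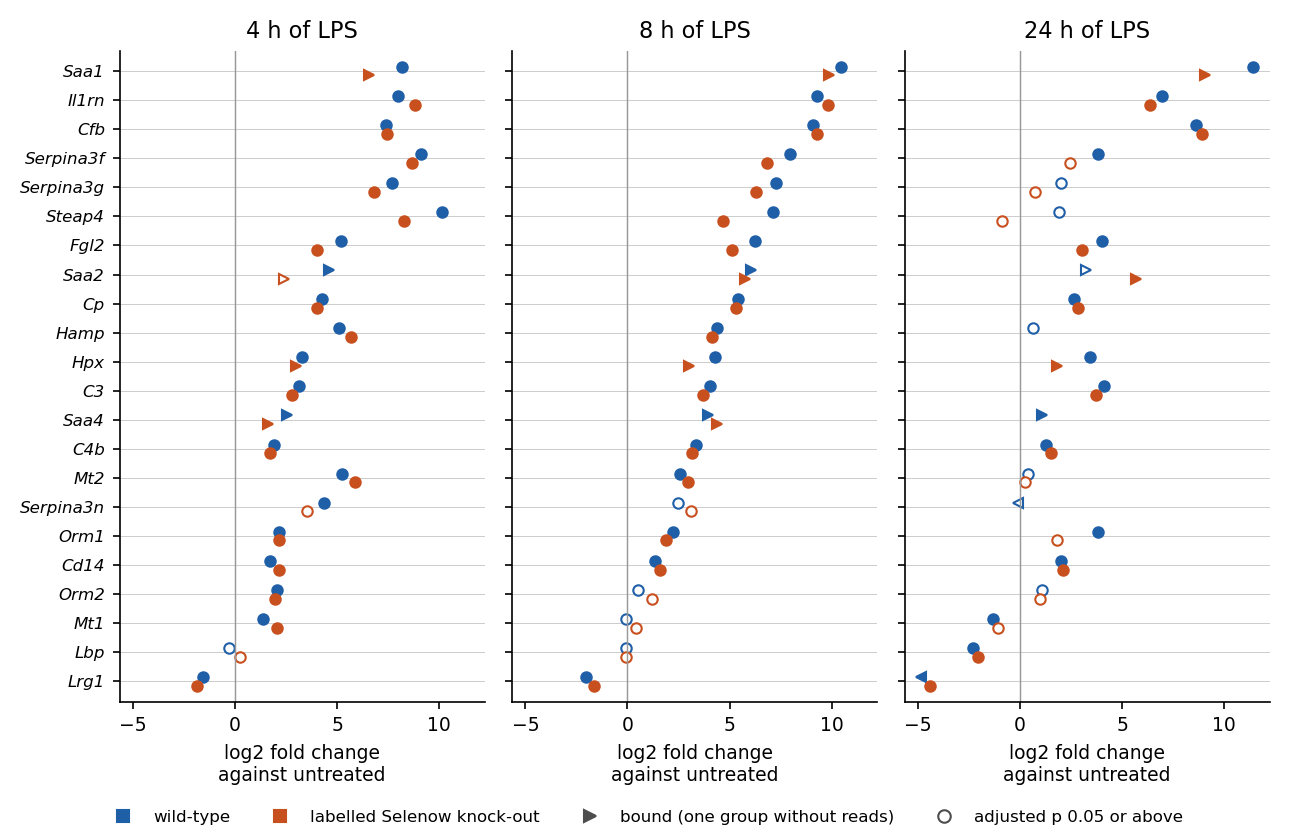
Log2 fold change against untreated for the tested genes of the acute-phase list that are shown, all but 1 of 23, at 4, 8 and 24 h of LPS, ordered by the wild-type value at 8 h, in wild-type and labelled knock-out. Most are called higher at 4 h in wild-type and fewer at 24 h, while Lrg1 is lower at each time; triangles are bounds where a group had no reads, open symbols have an adjusted p of 0.05 or above, and no symbol is drawn where both groups were at or under 3 counts.

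Most genes known to induce or control the acute-phase response were higher after LPS. Of 25 tested of 27 listed, 19, 19 and 17 were called higher and 3, 2 and 1 lower in wild-type at 4, 8 and 24 h, and 20, 21 and 14 higher in the labelled knock-out. The shares of all genes called higher were 28.2%, 30.3% and 27.8% in wild-type and 28%, 28.3% and 22.6% in the labelled knock-out. The median log2 fold changes of the list in wild-type were 3.17, 2.76 and 1.75. Il6 had 4 h, 8 h and 24 h means of 645, 112 and 7.24 CPM, Nfkbiz (the NF-kappaB cofactor I-kappaB-zeta) went from 14.6 to 826, 143 and 87.6 CPM, and Cebpd from 38.3 to 266, 38.3 and 26.8 CPM. All 3 had their highest mean at 4 h, as Ptx3 did, and were below it at 8 h (log2 changes of -2.53, -2.53 and -2.80 from 4 to 8 h, adjusted p = 0.0216, 6.39e-06 and 4.85e-08). Second-set libraries raised some of these means: Il6 was at 68.3, 41 and 226 CPM at 8 h and 2.53, 1.56 and 17.6 CPM at 24 h, and Nfkbiz at 95.5, 84.2 and 250 CPM at 8 h. Cebpb stayed up longer, at 832, 760 and 405 CPM from 120 CPM untreated, and Stat3 at 607, 539 and 239 CPM from 119 CPM. Socs3, a feedback inhibitor of interleukin-6 signalling, rose from 5.71 to 2289, 851 and 363 CPM. At 8 h 1 gene of the list, Osm (oncostatin M), was called between genotypes, where 2.2% of all genes were called. It was lower in the labelled knock-out by -1.32 (adjusted p = 7.37e-05, edgeR), and it is named because it was the only such gene.

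Receptors and partners of the 4 proteins were called in both directions about as often as genes at large. Of 26 tested of 28, 8, 9 and 9 were called higher and 9, 7 and 6 lower in wild-type at 4, 8 and 24 h, near the shares of all genes (28.2%, 30.3% and 27.8% higher, 34.8%, 35.1% and 27.3% lower), and the median log2 fold change was -0.16, -0.26 and -0.11. Cd163, the receptor for haptoglobin and haemoglobin complexes, fell from 23.1 to 2.49, 0.625 and 1.23 CPM while Hp rose (log2 fold change of -5.21 ± 0.62 at 8 h, adjusted p = 7.50e-07). Hmox1, haem oxygenase, was at 443, 316 and 5371 CPM at 0, 4 and 8 h and was called higher at 8 h (3.60 ± 0.35, adjusted p = 6.28e-08), with 986, 1017 and 2963 CPM in the 24 h libraries. Fpr2, a formyl peptide receptor that binds serum amyloid A, rose from 2.52 to 137, 361 and 132 CPM, and Tlr2, another reported serum amyloid A receptor, from 99.1 to 1603 and 443 CPM, with 87.8 CPM at 24 h. Slc22a17, a lipocalin 2 receptor, was at 0.174, 0.184 and 0.106 CPM at 0, 4 and 8 h. Tnfaip6, whose protein binds Ptx3 in hyaluronan matrix, peaked at 4 h with 3.68 CPM and was at 0.823 CPM at 8 h, the same order of times as Ptx3.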

How the data were processed

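The deposited table holds raw read-pair counts per gene, made by the authors with HISAT2 (version not given in the sources used here) and featureCounts 2.0.1, per the file header and the submitters' processing notes. Its header gives Ensembl release 101 of GRCm38, no use of strand, pairs over several genes counted for each, and no multi-mapping reads. The deposited gene lengths are sums of exonic bases. Symbols came from GENCODE M21 (55141 of 55401 IDs matched). Counts were scaled by TMM and tested with edgeR 4.0.16 in R 4.3.3 (quasi-likelihood F-test, 1 fit of 8 group means over 23 libraries, 18083 genes kept by filterByExpr, Benjamini-Hochberg adjustment over all of them, threshold 0.05). Alternatives used DESeq2 1.42.0, limma-voom (limma 3.58.1), other scalings, filters and samples. The fit was tested on simulated data. Fold changes against groups without reads were bounded by 3 counts over the group. The genes, lists and motifs were chosen with earlier results of these data known. The 5 genes most correlated with each member were named, with genes of provisional or no symbol left out of the ranking. Other genes outside the 4 were picked from the lists and not taken by rank. Some with a high mean CPM, such as Il1b, Tnf, Lrp1 and Cd14, are not described. The picks therefore do not stand for their lists, for which the counts and medians are given. Of the acute-phase list, 1 gene is counted but not reported here.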

Additional observations from a re-analysis of the deposited data

How the results depend on the processing

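No paired analysis was possible because no replicate number occurs in more than 1 group in the labels. The library sets, which were found in the data, entered instead as a term, with the values given below. The LPS results against untreated kept their direction and side of the threshold in every alternative run (190 planned, 552 leaving out 1 library, 72 added), and the counts of acute-phase and regulator genes called higher stayed within 1.5 times. 3 alternatives were added after seeing the data: without libraries 13, 16, 19 and 22, the library set at each time as a term, and the first library set only. Of the labelled knock-out at 24 h, the first of these leaves only library 23 and the last only library 22. The sets were found in these data and their p-values may be too small. Counts of all genes called differed most for the genotype comparisons (0.564% to 13.6% of genes against 1.52% at 0 h, at most 2467 against 274, 123 to 842 against 224 at 4 h, 160 to 2931 against 397 at 8 h, 34 to 3530 against 216 at 24 h, and 239 to 4321 against 1134 in the average) and the interactions (3 to 158, 0 to 2302 and 0 to 2957, against 8, 8 and 0 at 4, 8 and 24 h). Tested against a fold of 1.5, counts of LPS calls were lower (7384 against 11382 in wild-type at 4 h). Low read counts limit Ptx3 at 0 and 24 h. With only the groups compared, Ptx3 could not be fitted against untreated at 24 h, between genotypes at 0 and 24 h, or for the interaction at 24 h. The average and 24 h interaction of Ptx3 gave no value without library 23 or in the first set, where a group had no reads. The cause of the changes below was not tested.

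Values are log2 changes. Calls were lost for the wild-type step from 4 to 8 h when tested against a fold of 1.5 (Saa3 1.75, Hp 1.69) and with only the groups compared (Hp 1.70), and for the labelled knock-out step from 8 to 24 h without libraries 13, 16, 19 and 22 (Hp -2.73, with Lcn2 turning to 0.11). Calls were gained with the library set as a term for Lcn2 from 8 to 24 h (-1.08 and -1.20 in wild-type and labelled knock-out), for genotype in Lcn2 at 0 h (0.47) and in the average (0.21), in Hp at 8 h (0.77), 24 h (0.82) and in the average (0.56), in Ptx3 at 8 h (-0.77), and for the Ptx3 interaction at 8 h (-3.75). In the first set alone they were gained from 8 to 24 h for Saa3 (-1.07 and -0.90) and Lcn2 (-1.15 and -1.11), for genotype in Saa3 at 0 h (turning to 1.63) and in the average (0.50), in Lcn2 at 0 h (0.54) and in the average (0.21), in Hp at 0 h (0.84), 8 h (0.56), 24 h (0.98) and in the average (0.49), and for the Hp interaction at 4 h (-1.27). The first set holds libraries 13, 16, 19 and 22, in which Selenow was closest to wild-type, so its genotype values rest partly on them. At 24 h library 22 (Selenow at 181 CPM, within wild-type) is its only labelled knock-out library. Between the genotypes this fit called 6.56% of all genes at 0 h and 14.5% at 8 h, against 1.52% and 2.2% with all libraries. It also called more genes at 24 h and in the average. DESeq2 gained Ptx3 at 0 h (3.0) and its interaction at 8 h (-3.80).

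Other genotype differences changed sign without a call. Under limma-voom Saa3 at 0 h was 0.17, Ptx3 and Hp at 4 h were -0.037 and 0.10, and the Saa3 interaction at 4 h was -0.17. Without libraries 13, 16, 19 and 22 Saa3 at 0 h was 0.12, Ptx3 and Lcn2 at 4 h were -0.36 and -0.063, Ptx3 at 24 h was 0.71, and interactions were -0.36 for Saa3 at 4 h, -0.17 for Hp at 8 h and 0.20 for Lcn2 at 24 h. With the set as a term Saa3 was 0.19 at 0 h and 8.11e-05 at 4 h, Hp at 4 h 0.021, and the Saa3 interaction at 4 h -0.19. In the first set Lcn2 at 4 h was -0.052, and interactions were -1.94, -1.36 and -1.19 for Saa3 at 4, 8 and 24 h and -0.28 for Hp at 8 h.

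Leaving out each library in turn, the wild-type step from 4 to 8 h ranged from 1.43 to 1.99 for Saa3 and from 1.21 to 2.20 for Hp. The Lcn2 step from 8 to 24 h ranged from -1.04 to -0.11 in wild-type and from -0.99 to 0.073 in the labelled knock-out. Genotype values of Saa3 ranged from -1.04 to 1.34 at 0 h, -0.42 to 0.13 at 4 h and -0.11 to 0.48 in the average, of Ptx3 from -0.35 to 0.26 at 4 h and -0.49 to 0.71 at 24 h, of Lcn2 from -0.19 to 0.26 at 4 h and -0.45 to 0.83 at 24 h, and of Hp from -0.71 to 0.28 at 4 h. Interactions of Saa3 ranged from -1.45 to 0.94, -0.998 to 1.39 and -1.0 to 1.38 at 4, 8 and 24 h, of Hp from -0.35 to 0.35 at 8 h and -0.0034 to 0.64 at 24 h, and of Lcn2 from -0.92 to 0.36 at 24 h.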
